A study of Mus musculus with 19 samples.

Results

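The heat shock and DnaJ genes of mouse liver were followed through loss of the lipid droplet protein perilipin 5 and through re-feeding. The set was taken from the gene table by symbol: names in the Hsp series (Hsp90a and Hsp90b, Hspa, Hspb, Hspbp, Hspd, Hspe and Hsph) and in the Dnaja, Dnajb and Dnajc series. The endoplasmic reticulum chaperones Hspa5, Hsp90b1 and Dnajb9 and the matrix proteoglycan Hspg2 were left out, and a gene needed 50 or more counts summed over the 19 libraries. This gave 65 of the 24421 genes in the table, 25 with Hsp symbols and 40 with Dnaj symbols, out of 71 symbols that match the names. Dnajb7 and Hspb2, with totals of 59 and 60 counts, lay just inside the limit, Dnajc6 and Hspb9, with 45 and 21, lay just outside it, and Dnajc5b, Dnajc5g, Dnajb8 and Hspb3 had 0. By family the 65 were 2 Hsp90 genes, 10 of the Hsp70 family, 3 of the Hsp110 family, 5 small heat shock proteins, 2 chaperonin genes, 4, 11 and 25 J proteins of classes A, B and C, and 3 that match by name only. These 3 are Hspbp1, an exchange factor for Hsp70, Hspbap1, a partner of a small heat shock protein, and Hspb11, a part of the transport machinery of cilia. After a filter on low counts 61 of the 65 were tested, and Hspb2, Hspb7, Dnajb3 and Dnajb7 were not.

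Hsp70 binds short greasy stretches of unfolded protein in a cycle driven by ATP. J proteins hand clients to Hsp70 and switch on its ATP hydrolysis, and Hsp110 proteins and other exchange factors let the client go again. Hsp90 acts later, on near-native clients such as steroid receptors and kinases, small heat shock proteins hold unfolded chains without using ATP, and the chaperonin pair Hsp60 and Hsp10, encoded by Hspd1 and Hspe1, folds proteins imported into the mitochondrial matrix. Some members are made at a steady high level, and others, among them Hspa1a, Hspa1b, Hsp90aa1, Hsph1, Hspb1 and Dnajb1, are classic targets of heat shock factor 1, which binds repeats of a short heat shock element. In hepatocytes the chaperones of the endoplasmic reticulum serve the secretion of plasma proteins, and those of the mitochondrion serve a large oxidative metabolism.

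The mice ate a purified normal diet and were injected 2 times weekly over 3 weeks with an antisense oligonucleotide (ASO), a synthetic strand that binds a chosen messenger RNA and brings its level down. It was aimed at Plin5 or was a control. All were fasted overnight, and the re-fed mice then had food for 4 h before liver was taken. There were 5 libraries of re-fed PLIN5 ASO liver, 5 of re-fed control ASO liver, 5 of fasted PLIN5 ASO liver and 4 of fasted control ASO liver, numbered 1, 3, 4 and 5. Strain, sex and age are not given in the labels used here. The ASO sequences are not given either, and the labels name each treatment only as PLIN5 ASO or control ASO. No label says that the libraries of a group come from separate mice, and p-values measure only the spread between these libraries. The liver is whole tissue, in which fewer cells of a type and less RNA per cell cannot be told apart.

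Total counts, in units of 1e+06, ran between 24.9 and 66.9 for the re-fed PLIN5 ASO libraries (the highest being library 5), between 25.8 and 30.8 for re-fed control ASO, 28.7 and 31.8 for fasted PLIN5 ASO and 28.2 and 33.9 for fasted control ASO, and the 65 chaperone genes held 0.474% to 0.639% of a library's counts. Levels are given in CPM, the counts a gene would have in a library of 1e+06 counts, on library sizes scaled by the TMM method. Plin5 itself had 3.91 to 11.8 CPM in re-fed PLIN5 ASO livers, against 27.3 to 51.8 CPM in re-fed control ASO livers, and 6.14 to 13.1 CPM in fasted PLIN5 ASO livers, against 35.1 to 38.5 CPM in fasted control ASO livers. The 10 hepatocyte markers together held 118000 to 164400 CPM in re-fed PLIN5 ASO libraries and 99220 to 124300 CPM in re-fed control ASO libraries. In fasted PLIN5 ASO libraries they held 105700 to 138100 CPM, and in fasted control ASO libraries 108100 to 125200 CPM. In 4 libraries, fasted PLIN5 ASO 3 and 5 and re-fed control ASO 3 and 5, the clock genes Arntl (14.6 to 45.0 CPM) and Dbp (1.82 to 18.9 CPM) lay apart from the other 15, where Arntl had 0.566 to 4.87 CPM and Dbp 36.3 to 160.4 CPM. These 4 are called the clock-shifted libraries, and values without them are given beside the results they move. The hepatocyte markers summed to 99220 to 115300 CPM in these 4, against 108100 to 164400 CPM in the other 15. Plin5 lay on the side of its ASO label in each of the 4, and the part of collection time or of the feeding labels in their clock genes was not tested. Fasted control ASO 3 and 4 were closer to each other (chi-square of 3.27 for each degree of freedom) than any other pair in a group, the next of which had 19.5.

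Start regions were searched for the heat shock element and for the endoplasmic reticulum stress element, on both strands, in windows of 250 bases before to 50 bases after each RefSeq start of mouse build GRCm38.p6. Of the 65 members 52 had a window. The heat shock element was searched as 3 units, GAANNTTCNNGAA, and as the shorter pairs GAANNTTC and TTCNNGAA, which lie inside it and can overlap. The 3-unit form was in 0.603% of the 32851 windows of the table and in 6 of the 68 member windows. These belong to 4 of the 52 member genes: Hspd1 and Hspe1, which share a site, Hsph1 and Dnajb6. GAANNTTC was in 7.86% of all windows and in 14 member windows (12 genes), and TTCNNGAA in 8.52% and in 8 (6 genes). The endoplasmic reticulum stress element, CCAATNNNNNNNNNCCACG, was in 0.119% of all windows and in 1 member window, that of Dnajc3. The sequences below belong to members whose values are described further on: the near-identical pair Hspa1a and Hspa1b, which varied most among the members, Dnajc3, which rose on re-feeding under control ASO, and the site shared by Hspd1 and its neighbour Hspe1. They are written 5′ to 3′ on the strand of the gene, with the matched bases in capitals, and a match is a match of letters only.
Hspa1a, the 250 bases before its start, chr17:34972157-34972406, minus strand: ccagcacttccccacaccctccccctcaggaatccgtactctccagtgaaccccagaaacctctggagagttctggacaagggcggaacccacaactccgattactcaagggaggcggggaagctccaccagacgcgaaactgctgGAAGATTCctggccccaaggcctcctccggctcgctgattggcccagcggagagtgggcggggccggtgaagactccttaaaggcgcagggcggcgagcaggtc
Hspa1b, the 250 bases before its start, chr17:34959239-34959488, minus strand: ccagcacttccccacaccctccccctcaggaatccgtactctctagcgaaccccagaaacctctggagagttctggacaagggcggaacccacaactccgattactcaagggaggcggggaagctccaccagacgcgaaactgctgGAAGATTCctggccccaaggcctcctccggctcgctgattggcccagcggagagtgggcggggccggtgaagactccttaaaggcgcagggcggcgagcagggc
Dnajc3, the 250 bases before its start, chr14:118937682-118937931, plus strand: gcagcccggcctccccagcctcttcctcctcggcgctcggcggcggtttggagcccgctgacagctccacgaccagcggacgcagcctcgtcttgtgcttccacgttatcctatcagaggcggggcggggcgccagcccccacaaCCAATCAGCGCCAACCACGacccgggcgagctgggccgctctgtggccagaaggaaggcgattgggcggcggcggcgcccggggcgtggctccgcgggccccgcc
Hspd1 and Hspe1, 30 bases between the Hspe1 start and the first of 2 Hspd1 starts, chr1:55088053-55088082, read on the minus strand: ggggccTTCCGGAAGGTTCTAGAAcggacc

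The stretches before Hspa1a and Hspa1b, whose starts lie 12918 bases apart on chromosome 17, differ at 3 of 250 bases (98.8% identical), and each holds 1 GAANNTTC match, 104 bases before the start. The coding parts of this pair are also nearly the same, and no source used here says how reads that fit both genes were counted, so the split of counts between them is uncertain. Hspd1 and Hspe1 run in opposite directions, and RefSeq places 2 starts for Hspd1. The first lies 216 bases from the Hspe1 start, with the genes facing apart, and the second, at 55088243, lies 95 bases past the Hspe1 start, so that the genes overlap by it. The 18 capital bases between them hold 5 overlapping matches, 2 of them of the 3-unit element, and lie 72 bases before the Hspe1 start and 127 bases before the first Hspd1 start. Seen from the second Hspd1 start the capitals lie 167 bases downstream, inside the gene. In Dnajc3 the stress element begins 105 bases before the start.

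Set against transcript length, in the deposited FPKM (fragments per kilobase, scaled to 1e+06 fragments), the constitutive cytosolic chaperones led. Hsp90ab1, the steady Hsp90, averaged 419.9 FPKM over the 19 libraries (lowest 324.2, highest 664.5) and Hspa8, the constitutive Hsc70, 410.5 FPKM (299.4 to 541.1), so the order of these 2 lies within their spread. The mitochondrial machinery followed, with Hspa9, the Hsp70 of the matrix and of protein import, at 196.1 FPKM (178.6 to 213.8), Hspe1 at 182.4 FPKM (149.6 to 212.6) and Hspd1 at 146.2 FPKM (113.7 to 171.0). Hspb8, a small heat shock protein that works with the co-chaperone Bag3 in delivering proteins to autophagy, stood at 144.4 FPKM (110.8 to 179.2), level with Hspd1 and well above the next small heat shock proteins, Hspb6 at 20.4 FPKM (15.3 to 25.2) and Hspb1 at 8.80 FPKM (3.55 to 33.1). The most abundant J proteins were Dnajc19 (84.0 FPKM, 62.7 to 113.2) and Dnajc15 (64.9 FPKM, 54.5 to 82.2), both linked to the mitochondrial import motor, and Dnajc22 (62.5 FPKM, 50.9 to 79.8). Among the heat-inducible genes Hsp90aa1 had 31.6 FPKM (18.9 to 74.3), Hsph1 15.9 FPKM (9.98 to 28.5), Hspa1b 4.01 FPKM (0.849 to 17.4) and Hspa1a 0.703 FPKM (0.0609 to 3). In every library both inducible Hsp70 genes thus lay far below Hspa8.

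**Figure D1:**
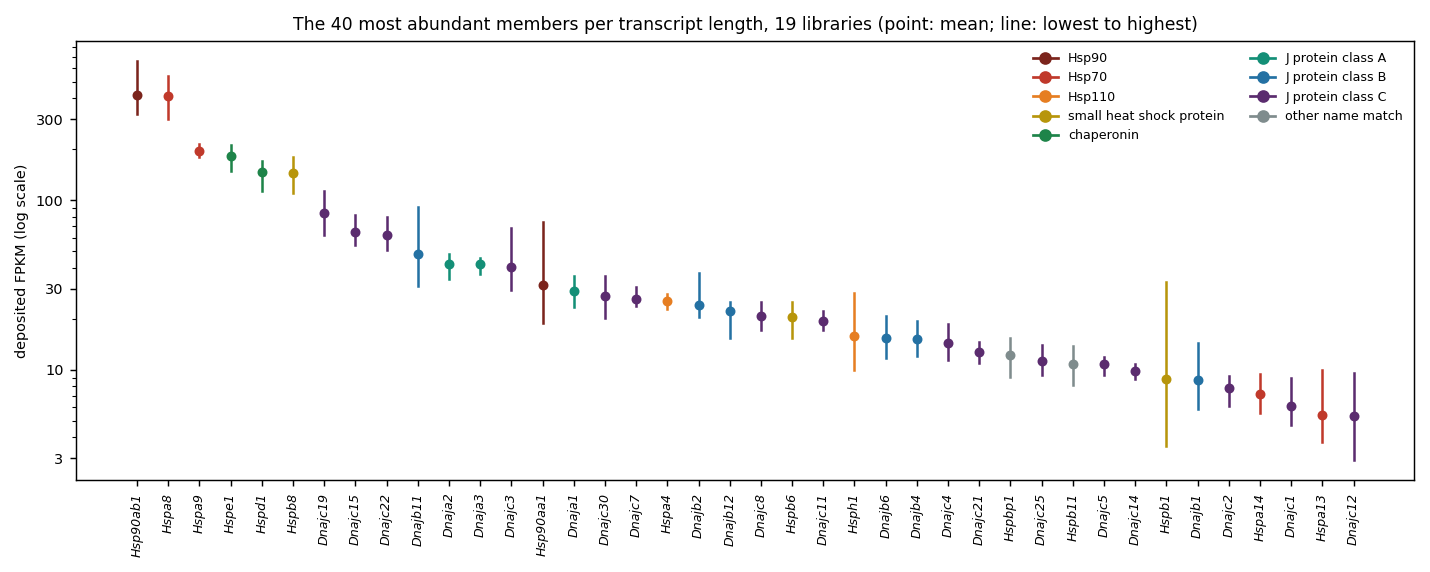
Mean deposited FPKM over 19 libraries (points, log axis) with the lowest and highest library (lines) for the 40 members with the highest means, coloured by family. Hsp90ab1 and Hspa8 lead at 419.9 and 410.5 FPKM, and the lines of Hsp90aa1 (18.9 to 74.3) and Hspb1 (3.55 to 33.1) are among the longest.

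Re-feeding under control ASO moved 5 of the 61 members tested. Dnajc1, Dnajc3 and Hspa13, all at the endoplasmic reticulum, and Hspa12a, a distant relative of Hsp70, rose in re-fed against fasted liver, and Dnajc30, a mitochondrial J protein, fell. The 5 are 8.20% of the members tested, against 13.2% of all 13293 genes tested that were called in this comparison (edgeR's quasi-likelihood test with Benjamini-Hochberg adjustment over all genes, threshold 0.05), so the chaperones were called at no higher share than other genes. At an unadjusted p under 0.05 there were 18 members (29.5%), against 28.8% of all genes. The median log2 fold change was 0.05 over the members, with 33 higher and 28 lower, and 0.03 over all genes.

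Dnajc1, a J protein of the endoplasmic reticulum membrane that contacts ribosomes (chr2:18195654-18392830, minus strand), had 36.9, 39.5, 51.1, 34.0 and 47.4 CPM in re-fed control ASO livers 1 to 5, against 33.3, 29.8, 29.3 and 30.1 CPM in fasted control ASO livers. The 2 groups did not overlap, and libraries 3 and 5 were highest. Dnajc1 thus rose by 0.45 on the log2 scale (SE 0.10, edgeR adjusted p = 0.00685). Without the clock-shifted libraries the change was 0.27 and no longer passed (edgeR adjusted p = 0.0725).

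Dnajc3, also known as p58IPK, a partner of the lumenal Hsp70 BiP and an inhibitor of the stress kinase PERK (chr14:118937976-118981697, plus strand), had 223, 196, 322, 235 and 363 CPM in re-fed control ASO livers, against 179, 191, 179 and 177 CPM in fasted control ASO livers. Every re-fed library was above every fasted one, and libraries 3 and 5 stood well above the other re-fed ones. Its log2 fold change was 0.56 (SE 0.15, edgeR adjusted p = 0.0196). Without the clock-shifted libraries it was 0.26 (edgeR adjusted p = 0.155), and it also missed the threshold when re-fed control ASO 3 or 5 or fasted control ASO 4 or 5 was left out alone, with a highest adjusted p of 0.0552.

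Hspa13, an ATPase of the Hsp70 family in microsomes that lacks the peptide-binding part (chr16:75745431-75767104, minus strand), had 21.5, 21.2, 42.6, 36.9 and 26.2 CPM in re-fed control ASO livers, against 18.1, 16.7, 19.9 and 16.0 CPM in fasted control ASO livers. The groups did not overlap, and libraries 3 and 4 carried the highest levels. Hspa13 rose by 0.75 on the log2 scale (SE 0.21, edgeR adjusted p = 0.0266). It was 0.59 without the clock-shifted libraries (edgeR adjusted p = 0.125), and the call was also lost when any 1 of fasted control ASO 1, 3 and 5 and re-fed control ASO 3 and 4 was left out, with adjusted p up to 0.0797. Merging fasted control ASO 3 and 4 into 1 sample lost it as well.

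Hspa12a (chr19:58795750-58943654, minus strand) is a low gene here, with 2.19, 1.92, 0.601, 0.950 and 0.788 CPM in re-fed control ASO livers, against 0.400, 0.611, 0.480 and 0.460 CPM in fasted control ASO livers. Libraries 1 and 2 were highest, and re-fed control ASO 3 lay inside the fasted range. Hspa12a rose by 1.39 on the log2 scale (SE 0.34, edgeR adjusted p = 0.0106). It passed without any single library and without the clock-shifted libraries, and missed the threshold under 2 alternatives, a fit of only these 2 groups (edgeR adjusted p = 0.0516) and limma on log2 of FPKM plus 1 with no filter (log2 difference 0.17, adjusted p = 0.0564).

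Dnajc30 (chr5:135064202-135065862, plus strand) had 19.7, 22.9, 20.4, 24.3 and 17.7 CPM in re-fed control ASO livers, against 33.3, 28.3, 27.2 and 22.5 CPM in fasted control ASO livers. The groups overlapped at fasted library 5. Its log2 fold change was -0.41 (SE 0.12, edgeR adjusted p = 0.0277), and it was -0.32 without the clock-shifted libraries (edgeR adjusted p = 0.160). It missed the threshold without fasted control ASO 1, 3 or 4 or re-fed control ASO 1, 3 or 5, with adjusted p up to 0.109. The same held in a fit of only the groups compared and with fasted control ASO 3 and 4 merged.

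By place in the cell, 6 of the 8 members of the endoplasmic reticulum were higher in re-fed control ASO liver and 3 passed, with a median log2 fold change of 0.32, and 7 of the 8 mitochondrial members were lower and 1 passed, with a median of -0.13, beside 13.2% of all genes called. As given above, none of these 4 calls held without the clock-shifted libraries. Hspb11 had 4.46 to 5.24 CPM in re-fed control ASO livers, against 5.64 to 6.29 CPM in fasted control ASO livers, and did not pass (log2 fold change -0.27, SE 0.13, edgeR adjusted p = 0.165). Dnajb11, a lumenal J protein named here after its values were seen, had 79.7, 69.5, 173, 108 and 176 CPM in re-fed control ASO livers, against 77, 78.2, 76.8 and 67.4 CPM in fasted control ASO livers, a log2 fold change of 0.70 (SE 0.26, edgeR adjusted p = 0.0769). The highest 2 values were again those of libraries 3 and 5, and without the clock-shifted libraries the change was 0.20 (edgeR adjusted p = 0.600). The 3 endoplasmic reticulum chaperones left out of the set did not pass in this comparison: Hspa5 had 522, 497, 1465, 799 and 1239.5 CPM in re-fed control ASO livers, against 533, 603, 597 and 463 CPM in fasted control ASO livers (log2 fold change 0.72, SE 0.28, edgeR adjusted p = 0.0950), and 0.14 without the clock-shifted libraries (edgeR adjusted p = 0.739). All 13 markers of Kupffer cells and macrophages were higher in re-fed control ASO liver, with a median log2 fold change of 0.39 and 0 called, and summed to 159.6 to 252.3 CPM, against 166.0 to 195.4 CPM in fasted control ASO liver, with none of the 13 at 0 in all libraries. Of the 10 stellate cell and fibroblast markers 9 were higher and of the 10 liver endothelial markers 9, with medians of 0.21 and 0.24 and 0 called. Their part in these changes was not tested.

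**Figure D2:**
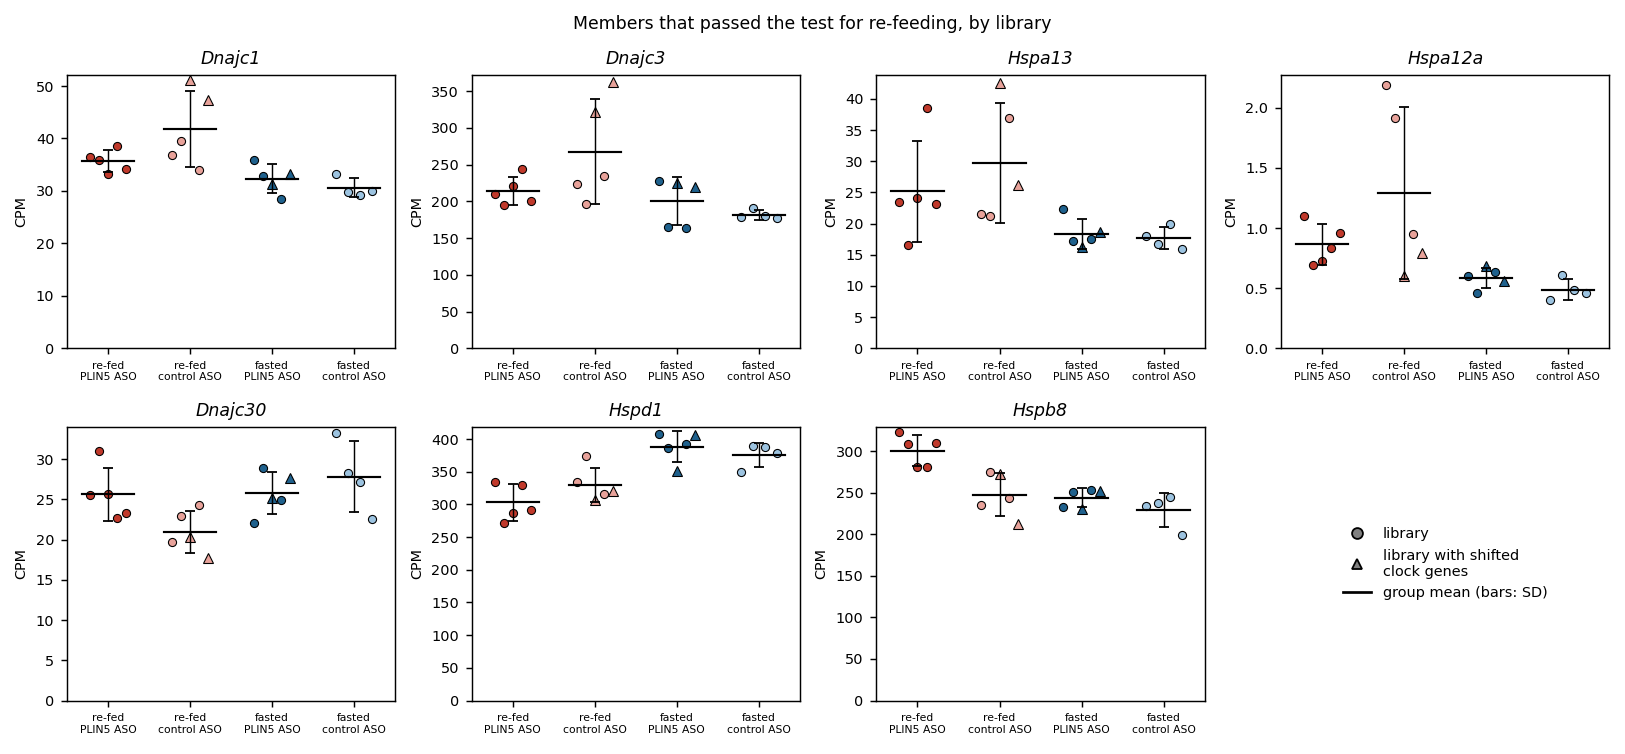
CPM by library for the 7 members that passed the test for re-feeding under either ASO, with group means and SD bars, and triangles for the clock-shifted libraries. In Dnajc1 and Dnajc3 the triangles at 47.4 to 51.1 CPM and 322 to 363 CPM top the re-fed control ASO group, and in Hspb8 all 5 re-fed PLIN5 ASO libraries lie at 280.5 CPM or more.

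Under PLIN5 ASO re-feeding moved 2 members. Hspd1, the chaperonin Hsp60, fell and Hspb8 rose in re-fed against fasted liver. They are 3.28% of the members tested, against 8.64% of all genes called in this comparison, and at an unadjusted p under 0.05 there were 10 members (16.4%), against 23.5% of all genes. The median log2 fold change was 0.02 over the members and 0.00 over all genes. Of the 5 members called under control ASO, Dnajc1 gave 0.14 here, Dnajc3 0.10, Hspa13 0.45, Hspa12a 0.57 and Dnajc30 -0.01. None of these passed, and neither did their interactions of ASO and feeding (edgeR adjusted p of 0.276 to 0.653).

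Hspd1 (chr1:55077835-55088243, minus strand) had 335, 272, 287, 329 and 291 CPM in re-fed PLIN5 ASO livers, against 407, 387, 350.5, 391.7 and 407 CPM in fasted PLIN5 ASO livers. The groups did not overlap. The log2 fold change was -0.36 (SE 0.07, 95% confidence interval -0.51 to -0.20, edgeR adjusted p = 0.0050), and it passed under all 31 alternatives, the removal of each library included. Under control ASO the same gene averaged 329.9 ± 26.4 CPM in re-fed livers and 376.3 ± 18.4 CPM in fasted livers (SD, n = 5 and 4), with a log2 fold change of -0.19 that did not pass (SE 0.08, edgeR adjusted p = 0.113). The difference between the 2 responses, tested as the interaction of ASO and feeding, was -0.17 (95% confidence interval -0.39 to 0.06, edgeR adjusted p = 0.467).

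Hspe1, the Hsp10 lid of the same chaperonin, whose start lies beside that of Hspd1, averaged 116.3 ± 16.0 CPM in re-fed PLIN5 ASO livers and 123.1 ± 9.86 CPM in fasted PLIN5 ASO livers (SD, n = 5 each), and the groups overlapped. Its log2 fold change was -0.08 (95% confidence interval -0.26 to 0.10, edgeR adjusted p = 0.611). Hspa9, the matrix Hsp70, averaged 605.8 ± 23.3 CPM in re-fed PLIN5 ASO livers and 609.3 ± 43.1 CPM in fasted PLIN5 ASO livers, a log2 fold change of -0.01 (95% confidence interval -0.15 to 0.13). The intervals of Hspe1 and Hspa9 each included 0, and that of Hspe1 overlapped that of Hspd1. With length trends taken out, Hspe1 gave -0.15 (edgeR adjusted p = 0.170). Whether Hspe1 and Hspa9 differ from Hspd1 was not tested.

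Hspb8 (chr5:116408491-116422864, minus strand) had 323, 308, 280.5, 281 and 310.1 CPM in re-fed PLIN5 ASO livers, against 233, 251, 230.1, 253 and 252 CPM in fasted PLIN5 ASO livers. Every re-fed library was above every fasted one. The log2 fold change was 0.30 (SE 0.08, 95% confidence interval 0.14 to 0.47, edgeR adjusted p = 0.0204), and it passed under all 31 alternatives, with adjusted p up to 0.0479. Under control ASO the log2 fold change on re-feeding was 0.11 (SE 0.08, edgeR adjusted p = 0.390), and the interaction was 0.19 (95% confidence interval -0.05 to 0.43, edgeR adjusted p = 0.435).

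Dnajc18, a J protein, had 10.4, 9.43, 10.8, 11 and 9.82 CPM in re-fed PLIN5 ASO livers, against 6.79, 6.48, 9.12, 5.83 and 8.93 CPM in fasted PLIN5 ASO livers. The groups did not overlap, and the 2 highest fasted libraries were the clock-shifted 3 and 5. The log2 fold change was 0.47 (SE 0.17, edgeR adjusted p = 0.0914), and without the clock-shifted libraries it was 0.69 and passed (edgeR adjusted p = 0.00613). Hspa1b, the inducible Hsp70, gave the largest fall among members in this comparison, a log2 fold change of -1.41 that did not pass (SE 0.68, edgeR adjusted p = 0.221), and without the clock-shifted libraries its sign turned, at 0.34. Of the 13 Kupffer cell and macrophage markers 12 were lower in re-fed PLIN5 ASO liver, with a median log2 fold change of -0.38 and 0 called, and their part in the changes was not tested.

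No member passed the test for PLIN5 ASO against control ASO, in re-fed or in fasted liver. In re-fed liver 1.38% of all genes were called, and the members had 0 calls by edgeR's test, 1 by DESeq2 (Hspb8) and 0 by limma on log2 FPKM, with 13 (21.3%) at an unadjusted p under 0.05 by edgeR, against 19% of all genes. In fasted liver 1.17% of all genes were called, and the members had 0 calls by edgeR, DESeq2 and limma, with 1 (1.64%) at an unadjusted p under 0.05 by edgeR, against 15.1% of all genes. The median log2 fold change over members was -0.02 in re-fed liver and 0.02 in fasted liver, beside -0.01 and 0.01 over all genes, and 53 and 58 of the 61 members lay within 0.5 of 0. The ASO comparison in re-fed liver shares its control livers with the re-feeding comparison under control ASO, and its PLIN5 ASO livers with that under PLIN5 ASO.

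Hspb8 came closest in re-fed liver. It had 323, 308, 280.5, 281 and 310.1 CPM in re-fed PLIN5 ASO livers, against 235, 274, 273, 243 and 213 CPM in re-fed control ASO livers, and the groups did not overlap. The 5 re-fed PLIN5 ASO libraries were the highest of all 19 for this gene. The log2 fold change was 0.28 (SE 0.08, 95% confidence interval 0.12 to 0.44, edgeR adjusted p = 0.0737), and DESeq2 gave 0.28 with an adjusted p of 0.0212. Without the clock-shifted libraries it was 0.26 (edgeR adjusted p = 0.157), and with length trends taken out 0.21 (edgeR adjusted p = 0.197).

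Among members with a mean of 2 CPM or more in 1 of the groups, the largest falls in re-fed liver were those of Hspa1b and Hspb1 and the largest rises those of Dnajc17 and Dnajc18, and none passed. Hspb1, whose levels by library are given further on, had a log2 fold change of -0.89 (SE 0.48, edgeR adjusted p = 0.323), and 0.03 without the clock-shifted libraries (edgeR adjusted p = 0.969). Dnajc17, a J protein, averaged 3.17 ± 0.67 CPM in re-fed PLIN5 ASO livers and 2.36 ± 0.78 CPM in re-fed control ASO livers (SD, n = 5 each), with a log2 fold change of 0.42 (SE 0.23, edgeR adjusted p = 0.316), and 0.76 without the clock-shifted libraries (edgeR adjusted p = 0.150). Hspa4l, an exchange factor of the Hsp110 family (chr3:40744495-40796103, plus strand), had 8.77, 8.87, 10.6, 13.5 and 9.56 CPM in re-fed PLIN5 ASO livers, against 11.9, 13.4, 14.7, 10.7 and 25.5 CPM in re-fed control ASO livers, where library 5 stood alone. Its log2 fold change was -0.57 (SE 0.19, edgeR adjusted p = 0.123). Without the clock-shifted libraries it was -0.23 (edgeR adjusted p = 0.496), and with length trends taken out -0.38. Dnajc18 had 10.4, 9.43, 10.8, 11 and 9.82 CPM in re-fed PLIN5 ASO livers, against 4.91, 7.08, 9.11, 6.78 and 10.4 CPM in re-fed control ASO livers, and the high values of the control group were again those of libraries 3 and 5. Its log2 fold change was 0.42 (SE 0.17, edgeR adjusted p = 0.180), and without the clock-shifted libraries it was 0.71 and passed (edgeR adjusted p = 0.0436). Dnajc30, which fell on re-feeding under control ASO, had a log2 fold change of 0.29 between the ASOs in re-fed liver (SE 0.11, edgeR adjusted p = 0.174), and Dnajc1 and Dnajc3, which rose there, had -0.23 (SE 0.10, edgeR adjusted p = 0.201) and -0.32 (SE 0.14, edgeR adjusted p = 0.225), on the same control livers. Without the clock-shifted libraries the values were 0.20 for Dnajc30, -0.05 for Dnajc1 and -0.03 for Dnajc3 (edgeR adjusted p = 0.483, 0.843 and 0.930).

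In fasted liver Hspb6, a small heat shock protein, had the smallest p. It had 19.7, 25.4, 21.8, 24.1 and 24.1 CPM in fasted PLIN5 ASO livers, against 32, 25.1, 26.6 and 30.4 CPM in fasted control ASO livers. The groups overlapped by a single library on each side, and the log2 fold change was -0.31 (SE 0.11, edgeR adjusted p = 0.173). Dnajb5, a class B J protein, had the next largest fall among members at 2 CPM or more, -0.22 (SE 0.15, edgeR adjusted p = 0.519). Markers of other cell types also differed in this comparison. All 13 Kupffer cell and macrophage markers were higher in fasted PLIN5 ASO liver, 2 of them called (C1qa and C1qb), and summed to 188.4 to 484.1 CPM, against 166.0 to 195.4 CPM in fasted control ASO liver. All 10 markers of stellate cells and fibroblasts were also higher, 3 of them called (Col1a2, Col3a1 and Lum), while of the 10 liver endothelial markers 3 were higher and 7 lower, with a median log2 fold change of -0.16 and 0 called. Their part in the chaperone values was not tested.

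**Figure D3:**
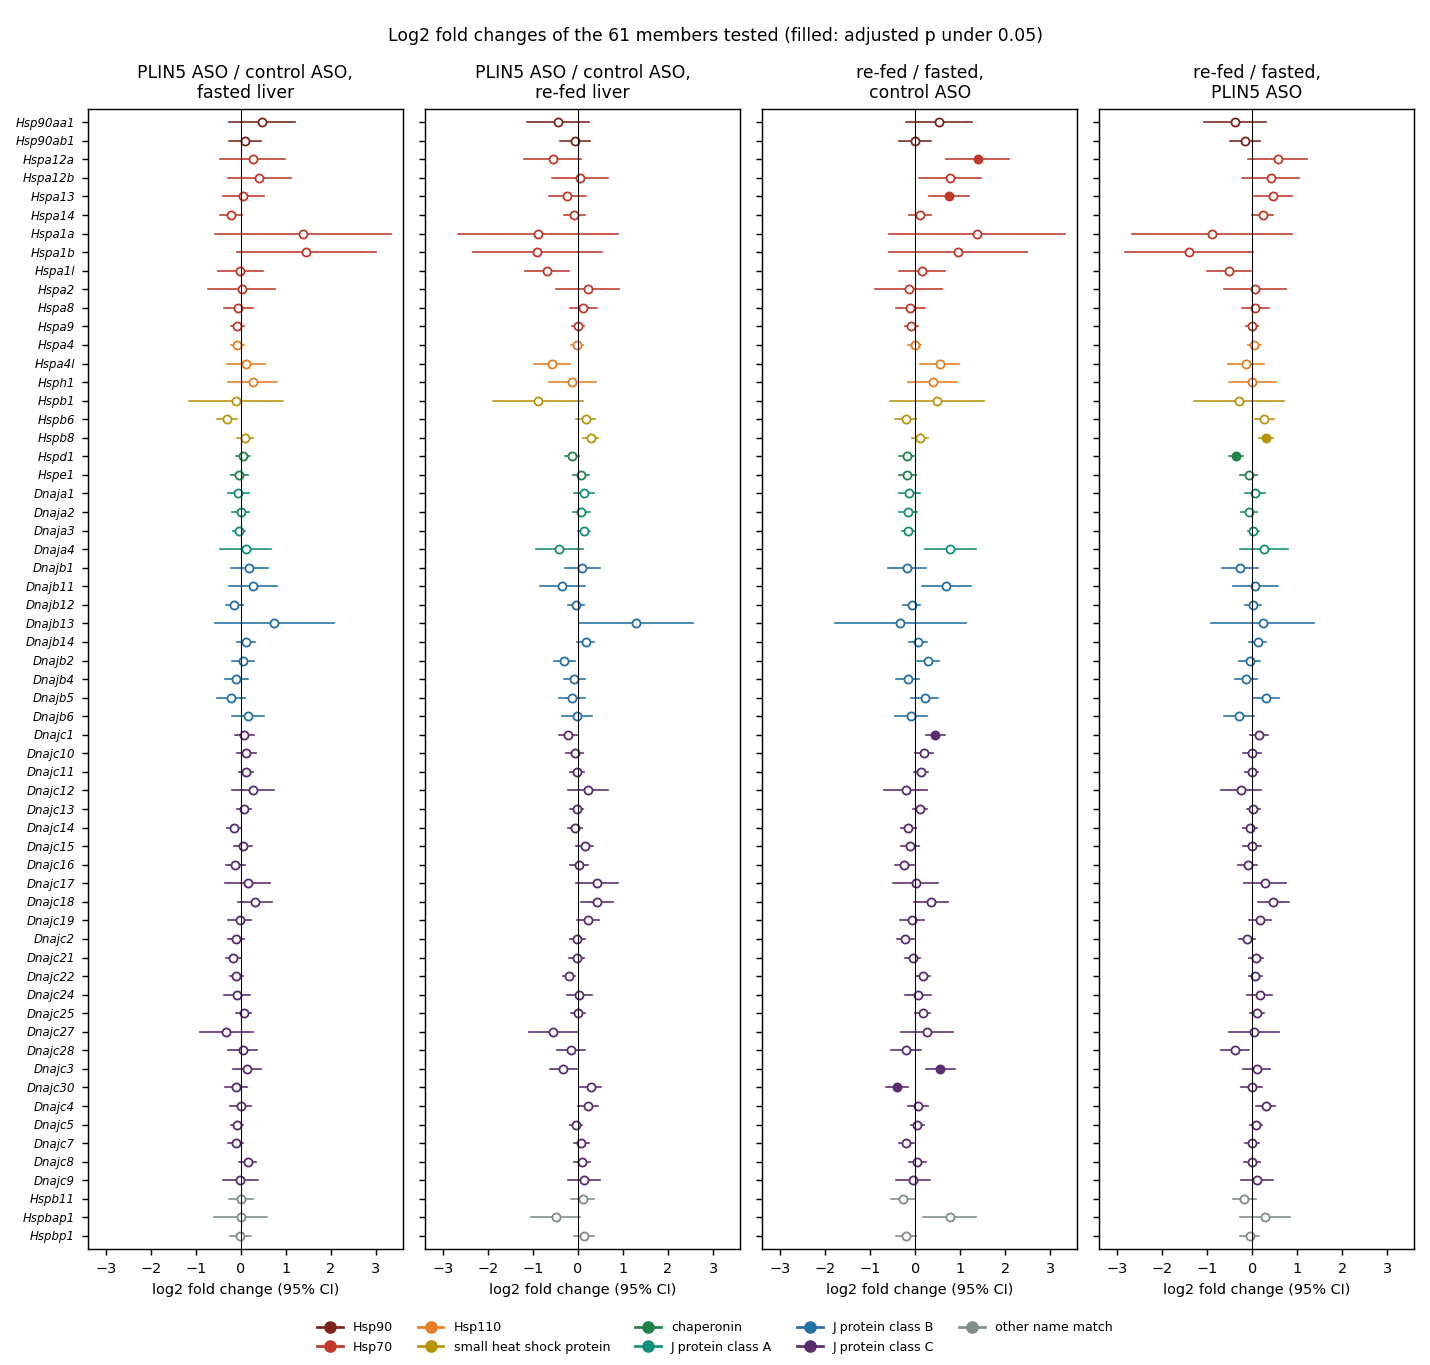
Log2 fold change with its 95% confidence interval for each of the 61 members tested, in 4 comparisons, coloured by family and filled where the adjusted p passed. The filled points are 5 for re-feeding under control ASO, 2 under PLIN5 ASO and 0 for the ASO in either state, and the longest intervals are those of Hspa1a, Hspa1b and Dnajb13.

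The interaction of ASO and feeding, which asks whether re-feeding differed between the ASOs, called 0.0226% of all genes and 0 members by edgeR, DESeq2 and limma, with 7 members (11.5%) at an unadjusted p under 0.05 by edgeR, against 15% of all genes. The smallest p was that of Hspb6, at 0.48 on the log2 scale (SE 0.15, edgeR adjusted p = 0.206). On re-feeding Hspb6 gave 0.27 under PLIN5 ASO (edgeR adjusted p = 0.116) and -0.21 under control ASO (edgeR adjusted p = 0.203). The largest value was that of Hspa1b, at -2.35 (95% confidence interval -4.45 to -0.26, edgeR adjusted p = 0.289), and it turned to 0.72 without the clock-shifted libraries.

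Several heat-inducible members varied widely between libraries of a group. Over all libraries, the spread within groups on the log2 scale was 1.58 for Hspa1a and 1.21 for Hspa1b, wider than in 99.8% and 99.3% of all genes tested, and 0.79 for Hspb1 and 0.57 for Hsp90aa1. For Hsph1 and Dnajb1 it was 0.44 and 0.32, and for the J protein Dnajb13, with 141 counts over all libraries, it was 0.80. The median was 0.18 over the members and 0.22 over all genes, and Hspa9 lay at 0.08.

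Hspa1b (chr17:34956436-34959238, minus strand) had 2.96, 6.48, 5.25, 12.7 and 6.37 CPM in re-fed PLIN5 ASO livers, 2.83, 6.49, 17.4, 5.79 and 30.6 CPM in re-fed control ASO livers, 4.66, 4.20, 46.8, 7.16 and 26.8 CPM in fasted PLIN5 ASO livers and 2.40, 10.2, 9.07 and 4.53 CPM in fasted control ASO livers. The 4 highest values were those of the 4 clock-shifted libraries. The ASO gave a log2 fold change of 1.45 in fasted liver (SE 0.74, edgeR adjusted p = 0.368) and -0.90 in re-fed liver (SE 0.68, edgeR adjusted p = 0.498), and both signs turned without the clock-shifted libraries, at -0.30 and 0.42. Hspa1a (chr17:34969190-34972156, minus strand) had 8.25 and 3.59 CPM in fasted PLIN5 ASO 3 and 5, and for re-fed control ASO 3 and 5 it was 4.61 and 5.90 CPM, with 0.171 to 3.10 CPM in the other 15 libraries.

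Hsp90aa1, the inducible Hsp90 (chr12:110690605-110702728, minus strand), had 56.7, 68.7, 63.3, 123 and 87.2 CPM in re-fed PLIN5 ASO livers, 57.1, 89.7, 124, 58.9 and 212 CPM in re-fed control ASO livers, 90.1, 65.6, 153, 67.9 and 146 CPM in fasted PLIN5 ASO livers and 65.3, 88.2, 87.4 and 59.6 CPM in fasted control ASO livers. The 4 clock-shifted libraries were again the highest, with re-fed PLIN5 ASO 4 just below the lowest of them. Its steady partner Hsp90ab1 (chr17:45567775-45573271, minus strand) had 1642 CPM in re-fed control ASO 5, against 790.5 to 1126 CPM in the other libraries of that group. Re-feeding under control ASO gave a log2 fold change of 0.00 for Hsp90ab1 (SE 0.17), and without the clock-shifted libraries it fell, at -0.34 (edgeR adjusted p = 0.0370).

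Hspb1, the small heat shock protein Hsp27 in human (chr5:135887919-135889563, plus strand), had 5.20, 5.22, 3.87, 7.50 and 4.35 CPM in re-fed PLIN5 ASO livers, 3.66, 6.94, 6.78, 4.75 and 26.0 CPM in re-fed control ASO livers, 2.90, 3.68, 12.7, 3.16 and 9.46 CPM in fasted PLIN5 ASO livers and 9.40, 5.5, 6.27 and 6.27 CPM in fasted control ASO livers. Re-fed control ASO 5 stood alone, and fasted PLIN5 ASO 3 and 5 came next with fasted control ASO 1. The ASO difference in fasted liver was -0.11 on the log2 scale (SE 0.50, edgeR adjusted p = 0.946). Without the clock-shifted libraries the 3 remaining fasted PLIN5 ASO livers, at 2.90 to 3.68 CPM, lay below all 4 fasted control ASO livers, with a log2 fold change of -1.08 that just missed the threshold (edgeR adjusted p = 0.0575).

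Other inducible members followed the same libraries in part. Hsph1, an Hsp110, had 82.7 and 105 CPM in libraries 3 and 5 of re-fed control ASO, whose other libraries held 35.8 to 60.8 CPM, but 58.3 and 71.8 CPM in libraries 3 and 5 of fasted PLIN5 ASO, where library 1 had 69.2 CPM. Dnajb1, the main J partner of inducible Hsp70, was highest in fasted PLIN5 ASO 3, at 42.6 CPM, and re-fed control ASO 5, at 34.3 CPM. On re-feeding under control ASO its log2 fold change was -0.18, and -0.48 without the clock-shifted libraries (edgeR adjusted p = 0.594 and 0.0674). For the ASO in re-fed liver it was 0.10, and 0.40 without them (edgeR adjusted p = 0.824 and 0.216). Hspa8, the constitutive Hsc70, was highest in re-fed PLIN5 ASO 4, at 1132 CPM. Within fasted PLIN5 ASO liver its highest library was the clock-shifted library 5, at 1029 CPM, beside 792 to 823 CPM in the others. Over all members, 22 of 61 (36.1%) had their highest library among the 4 clock-shifted ones, against 31.9% of all genes, and 11 of 61 (18.0%) had it in re-fed control ASO 5, against 10.7% of all genes. The clock-shifted libraries also had 178.1 to 484.1 CPM summed over the Kupffer cell and macrophage markers, against 140.7 to 286.7 CPM in the other 15, and the part of the clock genes or of these cells in the chaperone levels was not tested.

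**Figure D4:**
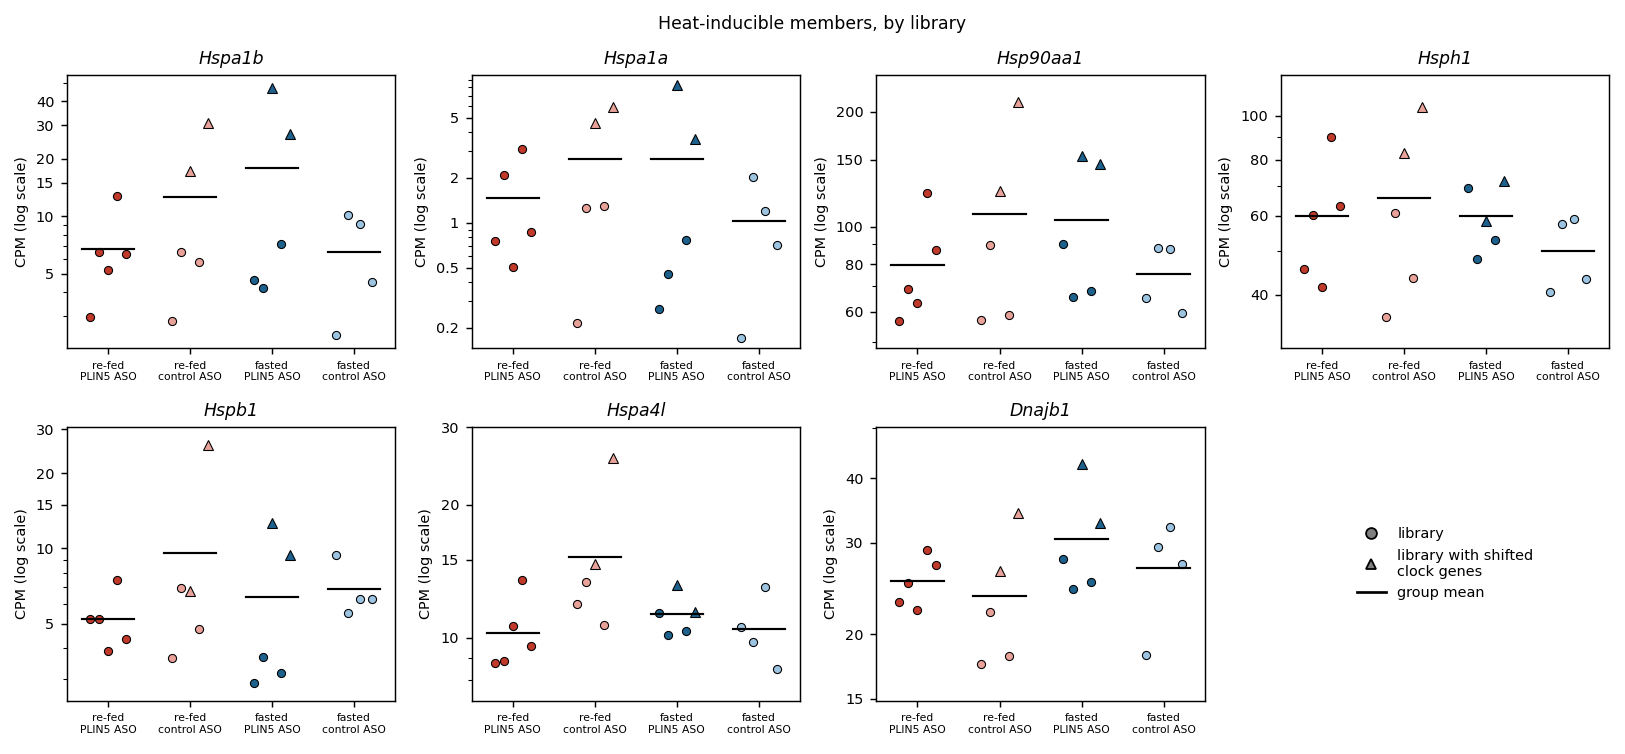
CPM by library on log axes for 7 members, most of them heat-inducible, with group means as lines and triangles for the clock-shifted libraries. In Hspa1b and Hsp90aa1 the 4 triangles are the highest of the 19 points, at 17.4 to 46.8 CPM and 124 to 212 CPM.

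Hspa8, Hspa4, Dnaja1, Dnajb4 and Dnajc12 gave log2 fold changes between -0.25 and 0.27 in the 4 pairwise comparisons with all libraries. Hspa8 (chr9:40800984-40810087, plus strand) averaged 890.8 ± 172 CPM in re-fed PLIN5 ASO, 821.0 ± 145 CPM in re-fed control ASO, 851.1 ± 99.99 CPM in fasted PLIN5 ASO and 886.7 ± 154 CPM in fasted control ASO livers (SD, n = 5, 5, 5 and 4), and its log2 fold changes ran between -0.11 and 0.12 with SE of 0.14 to 0.15. Hspa4, an Hsp110 exchange factor, averaged 125.6 ± 8.59, 127.5 ± 5.43, 121.5 ± 10 and 128.3 ± 4.52 CPM in re-fed PLIN5 ASO, re-fed control ASO, fasted PLIN5 ASO and fasted control ASO livers, with 95% confidence intervals of each of the 4 pairwise changes inside -0.22 to 0.18. Dnaja1, a class A J protein, averaged 176.0 ± 20.2, 160.3 ± 19.8, 168.2 ± 14.6 and 175.3 ± 25.4 CPM in the same order, and Dnajb4 36.7 ± 5.28, 38.8 ± 3.87, 40.7 ± 5.03 and 43.6 ± 7.34 CPM. Dnajc12, which in human helps fold the aromatic amino acid hydroxylases, averaged 6.38 ± 1 CPM in re-fed PLIN5 ASO, 5.43 ± 1.62 CPM in re-fed control ASO, 7.60 ± 2.52 CPM in fasted PLIN5 ASO and 6.29 ± 0.66 CPM in fasted control ASO livers. None of these 5 passed in a pairwise comparison. Without the clock-shifted libraries Dnajc12 gave 0.56 for the ASO in re-fed liver (edgeR adjusted p = 0.188), against 0.23 with all libraries. On re-feeding under control ASO it gave -0.54 without them (edgeR adjusted p = 0.111), against -0.21 with all libraries. Hspa8 and Dnajc12 varied within groups more than the median member, with a spread of 0.24 and 0.36 on the log2 scale.

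The partners of the chaperones were read from lists. Of 23 Hsp70 and Hsp90 co-chaperones, all tested, 2 rose and 3 fell on re-feeding under control ASO, where 13.2% of all genes were called. Cdc37l1, a relative of the kinase co-chaperone Cdc37, rose by 0.31 on the log2 scale (SE 0.08, edgeR adjusted p = 0.00949). Chordc1, an Hsp90 partner, rose by 0.35 (edgeR adjusted p = 0.037) and lost its call without the clock-shifted libraries (edgeR adjusted p = 0.159). Stub1, the ubiquitin ligase CHIP that marks Hsp70 clients for degradation, fell by 0.31 (SE 0.07, edgeR adjusted p = 0.00454), Tomm70a, the mitochondrial import receptor that docks Hsp70 and Hsp90, fell by 0.30 (SE 0.07, edgeR adjusted p = 0.00531), and Bag1, an Hsp70 exchange factor, also fell. Under PLIN5 ASO, where 8.64% of all genes were called, 1 rose, Unc45a, and 2 fell, with Stub1 at -0.21 (SE 0.06, edgeR adjusted p = 0.0453, and 0.0838 without the clock-shifted libraries) and Tomm70a at -0.30 (SE 0.06, edgeR adjusted p = 0.00482). No co-chaperone passed between the ASOs in either state, and the list's median log2 fold changes lay between -0.03 and 0.07 in the 4 comparisons.

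Of 11 mitochondrial chaperone partners and proteases, Grpel2, an exchange factor for Hspa9, fell on re-feeding under control ASO (log2 fold change -0.88, SE 0.18, edgeR adjusted p = 0.00342) and under PLIN5 ASO (-0.63, SE 0.17, edgeR adjusted p = 0.0254), and the protease Yme1l1 rose under control ASO but not without the clock-shifted libraries (edgeR adjusted p = 0.0578). The 2 comparisons have no library in common. Of 14 subunits of the cytosolic chaperonin TRiC and of prefoldin, only the prefoldin subunit Vbp1 passed, with a rise on re-feeding under control ASO (0.54, SE 0.12, edgeR adjusted p = 0.00545). Hsf1, the regulator of the heat shock response, had a log2 fold change of 0.20 on re-feeding under PLIN5 ASO (edgeR adjusted p = 0.229) and 0.24 under control ASO (edgeR adjusted p = 0.135), and its levels ran between 14.9 and 25.6 CPM over the 19 libraries. Among the 6 heat shock factors and their regulators that were tested, Ep300 rose and Hsbp1 fell on re-feeding under control ASO, Hsf2bp fell under PLIN5 ASO, and none passed between the ASOs. Without the clock-shifted libraries these 3 calls were lost, with edgeR adjusted p of 0.136 for Ep300, 0.0616 for Hsbp1 and 0.132 for Hsf2bp.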

How the data were processed

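The submitters' processing notes name the tools Subread, edgeR, Cuffdiff 2.2.1, HISAT2 2.0.2 and FastQC and the builds mm10 and GRCm38, without their roles. No source used here states the annotation, the strand setting or how reads shared between genes were handled. The authors deposited read counts per gene symbol as whole numbers, and FPKM values per gene symbol in a second table. From the deposited counts, R 4.3.3 with edgeR 4.0.16 was run with TMM scaling, the filterByExpr filter (minimum count 10), 1 fit of the 19 libraries with a mean per group, and two-sided quasi-likelihood tests in 5 comparisons, adjusted by Benjamini-Hochberg over 13293 genes at a threshold of 0.05. In every library 99.96% or more of the counts fell in these genes. The fit was tested on simulated counts. Alternatives used DESeq2 1.42.0, limma 3.58.1 on log2 of FPKM plus 1 or 0.1, RLE scaling, other filters, other sets of libraries and the replicate number as a block. The members and lists were chosen with earlier results of these data known. Named members were, in each comparison, those that passed (up to 8), the 2 largest rises and 2 largest falls among members whose mean reached 2 CPM in 1 group, and a fixed core, 27 of 65 in all. Gene positions are from the GENCODE annotation of GRCm38, matched by symbol, and start regions are from RefSeq. Same-numbered libraries did not deviate together, so the numbers were not used as pairs. Counting error is small for members at high counts but not for those at low counts, such as Hspa12a with 488 over all libraries. No interval for it is given.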

Additional observations from a re-analysis of the deposited data

Results flagged for a closer look

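In 6 of 108 sets of 1 member and 1 group (5.56%, over the 27 named members), 1 library lay further from the rest of its group than Dixon's limit at 95% allows. Chance alone gives about 1 in 20 such sets. Re-fed control ASO 5 gave 2 of them, with Hspb1 at 26.0 CPM beside 3.66 to 6.94 CPM in the other 4 libraries, and Hspa4l at 25.5 CPM beside 10.7 to 14.7 CPM. In fasted PLIN5 ASO liver, Hspa8 was highest in library 5, at 1029 CPM beside 792 to 823 CPM, and Hspa9 was lowest in library 3, at 534 CPM beside 616 to 639 CPM. In re-fed PLIN5 ASO liver, Dnajb5 had 6.04 CPM in library 2, beside 4.73 to 4.99 CPM, and Dnajc12 had 8.12 CPM in library 4, beside 5.56 to 6.21 CPM. Of the 6, the Hspb1, Hspa4l, Hspa8 and Hspa9 values were in clock-shifted libraries.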

How the results depend on the processing

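No result changed direction under an alternative, among the 5 counts of members and the 7 member changes that passed. For re-feeding under control ASO the count of 5 members became 8 with DESeq2 (the same 5 with Dnaja4, Dnajb11 and Hspbap1), 3 in a fit of only the groups compared, 3 when fasted control ASO 3 and 4 were merged, and 2 with the clock-shifted libraries left out (Hspa12a, which rose, and Hsp90ab1, which fell). It ran from 2 to 8 when single libraries were left out, with 2 without re-fed control ASO 3, 3 without re-fed control ASO 5 or any 1 fasted control ASO library, and 8 without re-fed control ASO 2. For re-feeding under PLIN5 ASO the 2 members became 5 without the clock-shifted libraries (Hspb8, Hspd1 and Dnajc18, with Dnajb6 and Dnajc28), and stayed at 2 without any single library. For the ASO in re-fed liver the count of 0 became 1 with DESeq2 (Hspb8) and 1 without the clock-shifted libraries (Dnajc18), and it was 0 without any single library, as it was for the ASO in fasted liver and for the interaction. With length trends in 25 bins taken out, the counts were 0 and 0 for the ASO in re-fed and fasted liver, 7 and 2 for re-feeding under control and PLIN5 ASO, and 0 for the interaction. Of the 7 changes, Hspd1 and Hspb8 passed under 31 of 31 alternatives, Dnajc1 under 30 of 31, Hspa12a under 26 of 28, Dnajc3 under 26 of 31, Hspa13 under 24 of 31 and Dnajc30 under 22 of 31. The causes were not tested.

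The replicate number as a block gave 0 members for the ASO in re-fed and in fasted liver, 7 for re-feeding under control ASO, 3 under PLIN5 ASO and 0 for the interaction. Of 27 same-number pairs 10 had a correlation of deviations over 0.1 (range -0.21 to 0.38), and 4 of 19 libraries correlated best with their own number, so the numbers are not taken to pair the libraries.

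Counts over all genes moved as well. For the ASO in re-fed liver the 183 genes became 612 with DESeq2, 290 with the block, 4 in a fit of only the groups compared, 45 without the clock-shifted libraries, 45 with length trends taken out and 45 to 341 without single libraries. For the ASO in fasted liver the 156 genes became 432 with DESeq2, 253 with the block, 70 with limma on log2 FPKM plus 1 and no filter, 36 with fasted control ASO 3 and 4 as 1 sample, and 22 to 188 without single libraries. For re-feeding under control ASO the 1759 genes became 1139 with fasted control ASO 3 and 4 as 1 sample, 1167 without the clock-shifted libraries and 1112 to 2014 without single libraries, and under PLIN5 ASO the 1148 became 741 to 1232. The 3 interaction genes became 95 with DESeq2 and 0 to 4 otherwise. Members at low counts, such as Hspa12a at under 3 CPM, rest on few reads, and the 4 members not tested cannot be compared.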
